A study of Mus musculus with 8 samples.

Results

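The genes described here encode the urea cycle and the liver enzymes that break down amino acids, 58 genes listed by name, of 22180 genes named on the array. A member was represented by the transcript cluster, the probe group read out together as 1 gene, that the platform annotation assigns to that symbol alone, and by the brightest such cluster where there were several. This gave a value for 54 members. The annotation rows used here gave Gls2, Gstz1, Sds and Sdsl no cluster of their own symbol alone, so these 4 members were not analysed here. The livers came from male mice with a knockout (KO) of Abhd15 (n = 5) and from male wild-type (WT) mice (n = 3), all with a clean C57BL/6J background, kept on normal chow, 14 weeks old by the design text, fasted overnight and given food again for 1 hour before the liver was taken. The labels name no deleted exon, promoter or Cre for the knockout. The product of Abhd15 belongs to the alpha/beta hydrolase fold family and has been studied mainly in fat cells. Each liver was measured on 1 Affymetrix Mouse Gene 2.0 ST array, and every value below is a log2 expression value, on which a step of 1 is a doubling, or a log2 difference of KO minus WT.

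Liver is the main site where the nitrogen of amino acids is turned into urea. Aminotransferases pass amino groups to glutamate and aspartate, glutamate dehydrogenase and glutaminase release ammonia, and the urea cycle joins ammonia, bicarbonate and the nitrogen of aspartate into urea, while each carbon skeleton follows a route of its own to pyruvate, ketone bodies or intermediates of the citric acid cycle. In rodents many of these genes are known to be induced by fasting, glucagon and glucocorticoids and to respond to dietary protein, and they are zoned along the lobule, with urea cycle enzymes and Hal mainly near the portal vein and Glul and Oat near the central vein.

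Abhd15 read 5.14, 5.04, 5.21, 5.17 and 5.04 in the KO arrays, against 5.65, 5.81 and 5.46 in the WT arrays, so the KO values all lay under the WT values (log2 difference -0.52 (SE 0.129), limma adjusted p = 0.795). This was the brighter of 2 clusters with its symbol alone, and the other was not examined here. KO arrays 1 and 2 were separated from the rest on the first principal component, and KO array 4 on the second. Hepatocyte markers were bright in both groups, with a list mean of 11.16 to 11.48 in KO and 11.34 to 11.43 in WT over 7 measured markers, and the list mean of 6 Kupffer cell and macrophage markers lay between 5.66 and 6.82 in KO and between 5.70 and 6.26 in WT. The measured marker lists of the other cell types had list means of at most 7.27 on every array, and their part in the results was not tested. Single markers in these lists were brighter, with means of up to 9.49 (Dcn). Of 5 erythroid markers 0 had a cluster of their own symbol alone, so blood cells were not assessed. Of 6 sinusoidal endothelial markers 3 were higher and 3 lower in KO; Lyve1, singled out after its values were seen, read 8.21, 7.65, 7.58, 7.65 and 7.64 in the KO arrays, against 7.02, 7.18 and 7.08 in the WT arrays (0.65 (SE 0.164), adjusted p = 0.795). In whole liver, fewer cells of a type and less RNA per cell cannot be told apart.

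No member passed the test for a difference between KO and WT livers. Of the 54 members, 25 were higher and 29 lower in the KO mean, with a median log2 difference of -0.015, against a median of -0.0018 over all 23521 clusters with 1 symbol. Most members were bright, and the median was -0.040 among clusters with a mean of at least 5 and -0.018 among those of at least 8. The median size of the difference, without its sign, was 0.079 among members, 0.13 among all clusters and 0.091 among 1645 clusters whose mean was at least 8. The adjusted p of limma over all 23521 clusters lay between 0.833 and 0.996 for the members, and 0 of the 23521 passed 0.05. At an unadjusted p under 0.05 there were 0 members, against 6.08% of all clusters (1429 of them) and 5.69% of those with a mean of at least 5. The count depended on the variance setting. With limma's trend and robust settings there were 6 of the 54, against 6.21% of all clusters. These were Tat, Hal and Asl, higher in KO, and Oat, Nags and Glul, lower, and 0 passed after adjustment. In 3 members no KO value overlapped the WT values, 1 higher (Tat) and 2 lower (Oat and Shmt1) in KO, against 4.43% of all clusters (1.99% higher and 2.44% lower), and 6.05% of those with a mean of at least 5. The count was 5 without KO array 3 (6.71% of all clusters), 5 without KO array 4 (6.98%), 8 without KO array 5 (8.31%) and 6 without WT array 1 (10.5%). It was 3 or 4 without any other single array, where the share of all clusters was not computed.

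Most members were bright. Of the 54, 50 had a mean of at least 5, 44 of at least 8 and 22 of at least 10. The 4 below 5 were Ass1, Bhmt, Phgdh and Psat1, which were not shown to be above background. The 95% interval of the log2 difference lay inside a 1.5-fold change in either direction for 48 members, each taken on its own. The other 6 were Hal, whose interval reached higher, Glul, Oat, Ass1 and Bhmt, whose intervals reached lower, and Phgdh, whose interval reached both ways. Bhmt was the 1 member whose interval also reached past 2-fold. These intervals, like every SE given here, are those of limma, which draws the variance of each cluster towards a value shared over all clusters. They are therefore not the spread of a member's own arrays. They were wider than that spread would give where the arrays lay close together. For Hgd the SE was 0.113, with an SD of 0.044 in KO and 0.042 in WT. Among the 50 members with a mean of at least 5, the fold of KO over WT lay between 0.81 and 1.26.

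**Figure D1:**
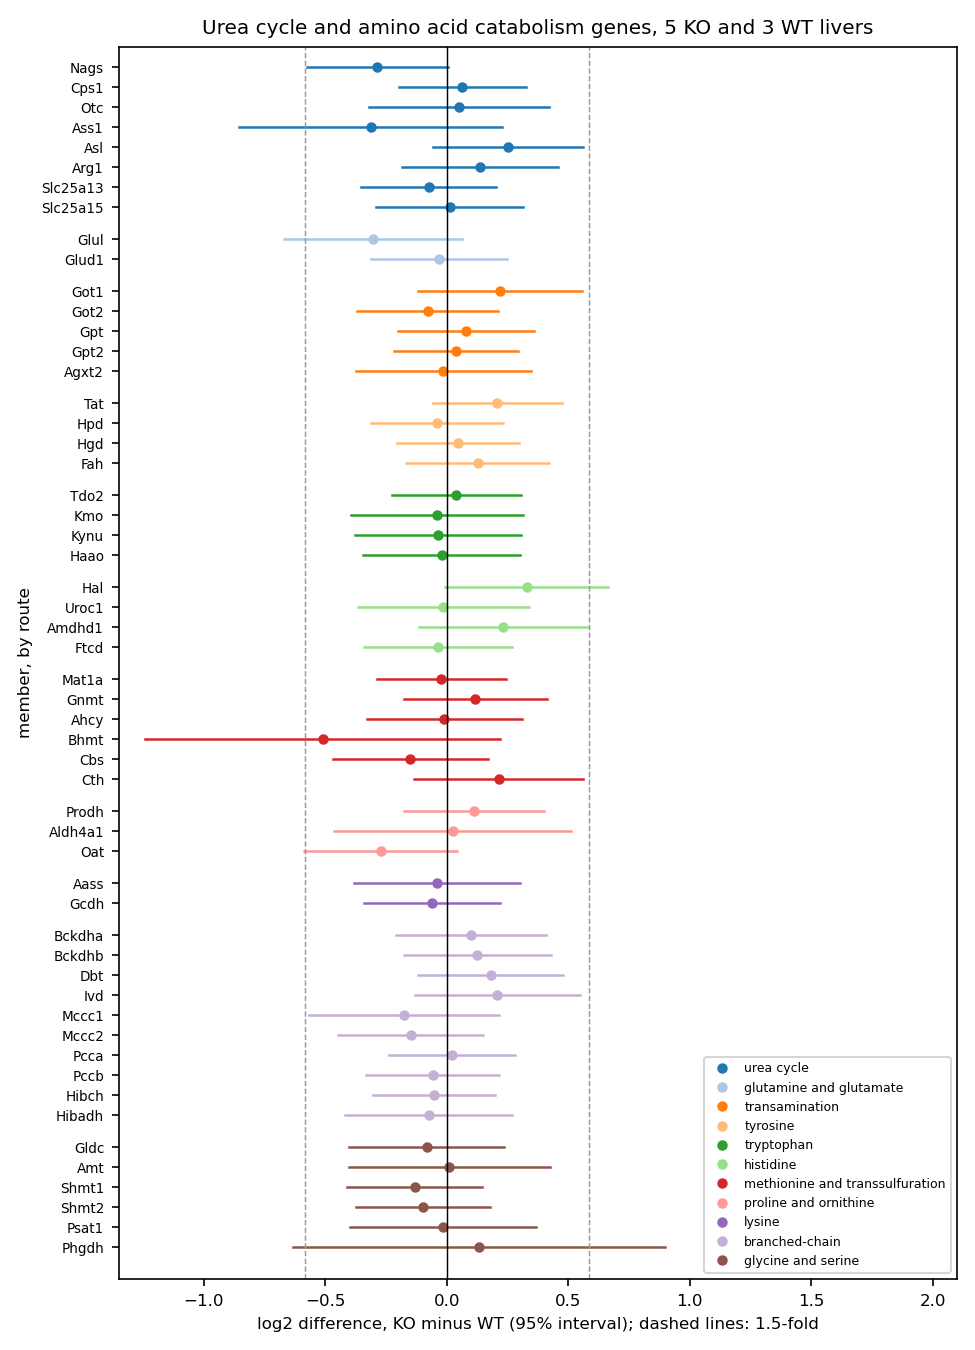
The log2 difference of KO minus WT (x axis) for each of the 54 members (y axis), coloured by route, with the 95% interval of limma from 5 KO and 3 WT arrays; dashed lines mark 1.5-fold. Each interval includes 0, and the widest belong to Phgdh and Bhmt, which are dim clusters.

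Among the 8 members of the urea cycle, 5 were higher and 3 lower in KO, with a median log2 difference of 0.030 and none past the test. Nags makes N-acetylglutamate, the obligate activator of the entry step. It read 7.26, 7.21, 7.20, 7.38 and 7.24 in the KO arrays, against 7.35, 7.74 and 7.54 in the WT arrays. All KO arrays except array 4 lay below all WT arrays, and the log2 difference was -0.29 (SE 0.131) (adjusted p = 0.834, two-sided exact permutation p = 0.0357); without WT array 2 it was -0.18. A second, dimmer cluster of Nags differed in the same direction by -0.42 (SE 0.191), with an unadjusted p of 0.0498. Of the 4 members with a second cluster of their own symbol, Nags and Glul differed in the same direction in both clusters, and Got2 and Ahcy in opposite directions.

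Cps1, the mitochondrial carbamoyl phosphate synthetase that Nags serves, was among the brightest genes of the liver. It read 12.25, 12.22, 12.35, 12.40 and 12.41 in the KO arrays, against 12.32, 12.23 and 12.24 in the WT arrays, a log2 difference of 0.065 (SE 0.118) with a 95% interval of -0.20 to 0.33. Otc, which forms citrulline in mitochondria, read 10.98, 11.03, 10.90, 10.84 and 10.43 in the KO arrays, against 10.56, 10.97 and 10.83 in the WT arrays. Its groups overlapped throughout, with KO array 5 lowest, and the difference of 0.049 (SE 0.168) changed sign without WT array 1 (-0.065) and without KO arrays 1 and 2 (-0.064).

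In the cytosol, Asl splits argininosuccinate into arginine and fumarate. It read 10.93, 11.07, 11.12, 11.11 and 10.89 in the KO arrays, against 10.93, 10.86 and 10.53 in the WT arrays. The groups overlapped through WT array 1, and the log2 difference of 0.25 (SE 0.139) (adjusted p = 0.849) was 0.13 without WT array 3, the lowest array. Arg1, the arginase that releases urea, read 11.01, 10.90, 11.24, 10.95 and 11.31 in the KO arrays, against 11.10, 10.85 and 10.88 in the WT arrays. The difference of 0.14 (SE 0.145) was within the spread of the arrays, at 0.081 without KO array 5, 0.089 without WT array 2 and 0.22 without WT array 1. Ass1 encodes argininosuccinate synthetase and is abundant in liver, but the cluster that carries its symbol was dim, and whether it covers the main transcript was not tested. It read 4.18, 4.70, 3.98, 3.66 and 3.58 in the KO arrays, against 4.32, 4.59 and 4.09 in the WT arrays. Probe positions were not used here, and the difference of -0.31 (SE 0.245) was -0.48 without KO array 2, -0.20 without KO array 5 and -0.18 without WT array 2. The carriers Slc25a13, which exports aspartate from mitochondria, and Slc25a15, which imports ornithine, differed by -0.074 (SE 0.125) and 0.012 (SE 0.137).

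Glutamine and glutamate genes link the cycle to ammonia, and both measured members were lower in the KO mean. Glul, the glutamine synthetase of hepatocytes around the central vein, read 10.27, 10.29, 10.87, 10.50 and 10.54 in the KO arrays, against 10.65, 10.74 and 11.00 in the WT arrays. KO arrays 1 and 2 were the lowest and WT array 3 the highest, while KO array 3 lay above WT arrays 1 and 2. The log2 difference was -0.30 (SE 0.165) (adjusted p = 0.845, exact permutation p = 0.125) and -0.16 without KO arrays 1 and 2. The dimmer second cluster of Glul differed by -0.45 (SE 0.179, unadjusted p = 0.0301), also lower in KO, and did not pass after adjustment (0.795). Glud1, the mitochondrial glutamate dehydrogenase, read 10.81, 10.72, 10.79, 10.54 and 10.78 in the KO arrays, against 10.63, 10.79 and 10.85 in the WT arrays, a difference of -0.031 (SE 0.126) whose sign turned without KO array 4 or WT array 3 (0.016 and 0.013).

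The aminotransferases showed no common direction, with 3 of 5 members higher, 2 lower and a median log2 difference of 0.038. Got1, the cytosolic aspartate aminotransferase, read 11.21, 11.14, 11.04, 11.01 and 10.63 in the KO arrays, against 10.90, 10.75 and 10.72 in the WT arrays. Of the KO arrays 4 lay above all WT arrays and KO array 5 lay below them, giving a difference of 0.22 (SE 0.153) (adjusted p = 0.874), or 0.11 without KO arrays 1 and 2. Its mitochondrial counterpart Got2 read 11.25, 11.15, 11.12, 10.84 and 11.16 in the KO arrays, against 11.21, 11.21 and 11.14 in the WT arrays. The low value of KO array 4 carried most of the difference of -0.079 (SE 0.132), which was -0.013 without it. A second, dimmer cluster of Got2 differed by 0.11 (SE 0.207). Gpt, the cytosolic alanine aminotransferase, read 9.03, 8.89, 8.90, 9.09 and 8.82 in the KO arrays, against 8.75, 8.93 and 8.92 in the WT arrays (0.079 (SE 0.126), and 0.022 without WT array 1). Gpt2, the mitochondrial form, read 10.11, 10.14, 10.28, 10.19 and 10.20 in the KO arrays, against 10.18, 10.12 and 10.13 in the WT arrays, a difference of 0.038 (SE 0.115). Agxt2, a mitochondrial aminotransferase that uses glyoxylate, differed by -0.015 (SE 0.163).

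In the tyrosine route, 3 of 4 measured members had the higher mean in KO and the median log2 difference was 0.086. Tat, the tyrosine aminotransferase that starts the route and a classic gene induced by glucocorticoids and cAMP in rodent liver, read 12.01, 11.93, 11.79, 11.83 and 11.88 in the KO arrays, against 11.72, 11.74 and 11.59 in the WT arrays. It averaged 11.89 ± 0.0878 (SD, n = 5) in KO livers and 11.68 ± 0.0787 (SD, n = 3) in WT livers, with all KO values over all WT values. This 1.15-fold difference, 0.21 (SE 0.12) in log2, had a two-sided exact permutation p of 0.0357 and did not pass limma's adjustment (adjusted p = 0.858). It was 0.15 without KO arrays 1 and 2, with the groups still apart. The enzymes after it, Hpd, Hgd and Fah, which carry the ring through homogentisate to fumarate and acetoacetate, differed by -0.041, 0.045 and 0.13.

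The tryptophan route to kynurenine and quinolinate had the narrowest range of differences among the routes with at least 4 measured members. Tdo2, the dioxygenase that opens the indole ring, Kynu, the kynureninase, and Haao, which leads to quinolinate, had log2 differences of 0.04 (SE 0.121), -0.037 (SE 0.154) and -0.021 (SE 0.146). Kmo, the kynurenine 3-monooxygenase, read 9.72, 9.64, 9.65, 9.10 and 9.59 in the KO arrays, against 9.62, 9.48 and 9.64 in the WT arrays. KO array 4 lay below the other 7, and the difference of -0.04 (SE 0.16) turned to 0.069 without it.

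The 4 histidine genes act in order on 1 pathway from histidine to glutamate, and the largest positive difference of all members was in the enzyme that opens it. Hal, histidine ammonia-lyase, read 10.37, 10.46, 10.35, 10.13 and 9.93 in the KO arrays, against 9.78, 10.01 and 9.96 in the WT arrays. It averaged 10.25 ± 0.214 (SD, n = 5) in KO livers and 9.92 ± 0.118 (SD, n = 3) in WT livers, and KO array 5 was the 1 KO array within the WT range. This 1.26-fold difference, 0.33 (SE 0.151) in log2, gave an adjusted p of 0.833 with limma and an exact permutation p of 0.0714, and was 0.22 without KO arrays 1 and 2. Amdhd1, the imidazolonepropionase and the third enzyme, read 9.60, 9.72, 9.57, 9.13 and 9.33 in the KO arrays, against 9.29, 9.13 and 9.29 in the WT arrays. KO arrays 1, 2 and 3 lay above all others, and the difference of 0.23 (SE 0.157) was 0.10 without KO arrays 1 and 2. Uroc1, the urocanase between them, and Ftcd, which takes the last step to glutamate, differed by -0.015 (SE 0.159) and -0.036 (SE 0.137).

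Methionine is activated by Mat1a to S-adenosylmethionine, used up by Gnmt and other methyltransferases, split by Ahcy to homocysteine, and either remade by Bhmt or passed by Cbs and Cth to cysteine. Of these 6 members, 2 were higher and 4 lower in KO, with a median log2 difference of -0.016. Mat1a, one of the brightest clusters on the array, ranged over 12.44 to 12.65 in KO and 12.53 to 12.70 in WT, a difference of -0.022 (SE 0.12). Cth, cystathionine gamma-lyase, read 11.62, 11.57, 11.46, 11.40 and 11.03 in the KO arrays, against 11.07, 11.28 and 11.25 in the WT arrays. All KO arrays except array 5 lay above all WT arrays, with a difference of 0.21 (SE 0.156) (adjusted p = 0.884) that was 0.094 without KO arrays 1 and 2. The step before it, Cbs, differed the other way by -0.15 (SE 0.144). Bhmt, the betaine-homocysteine methyltransferase, is abundant in liver, but the cluster that carries its symbol was dim, and whether it covers the main transcript was not tested. It read 4.04, 3.51, 3.73, 2.56 and 3.65 in the KO arrays, against 4.55, 3.41 and 4.07 in the WT arrays. The groups overlapped in this cluster, and its difference of -0.51 (SE 0.33), the largest in size among members, was -0.28 without KO array 4, -0.24 without WT array 1 and -0.81 without WT array 2. Gnmt and Ahcy differed by 0.12 (SE 0.133) and -0.0095 (SE 0.144). A second, dimmer cluster of Ahcy differed by 0.51 (SE 0.352, unadjusted p = 0.175), and with the mean of all clusters of a gene the median of the route was 0.0477.

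Proline and ornithine reach glutamate through shared intermediates. Oat, the ornithine aminotransferase, which in mouse liver is found around the central vein, read 11.27, 10.84, 11.12, 11.08 and 11.27 in the KO arrays, against 11.28, 11.37 and 11.52 in the WT arrays. It averaged 11.12 ± 0.179 (SD, n = 5) in KO livers and 11.39 ± 0.125 (SD, n = 3) in WT livers, and all KO values lay under all WT values, although KO arrays 1 and 5 lay within 0.01 of WT array 1. The log2 difference of -0.27 (SE 0.142) (adjusted p = 0.841, exact permutation p = 0.0357) ranged from -0.33 to -0.20 as single arrays were left out. Prodh and Aldh4a1, which oxidise proline to glutamate, differed by 0.11 (SE 0.13) and 0.024 (SE 0.221). Of the lysine genes, Gcdh, the glutaryl-CoA dehydrogenase, read 10.41, 10.52, 10.51, 10.20 and 10.32 in the KO arrays, against 10.41, 10.47 and 10.47 in the WT arrays. KO array 4 was the lowest, and the difference was -0.059 (SE 0.126), or -0.012 without that array. Aass, which starts lysine breakdown, differed by -0.041 (SE 0.154).

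The 10 branched-chain members split evenly, 5 higher and 5 lower, with a median log2 difference of -0.014. The 3 subunits of the rate-setting branched-chain ketoacid dehydrogenase among the members were higher in the KO mean, Bckdha by 0.10 (SE 0.139), Bckdhb by 0.13 (SE 0.136) and Dbt by 0.18 (SE 0.135). Its further component Dld, not a member, differed by 0.0049 (SE 0.117). None of the subunits passed, and the arrays of the groups overlapped in each. Ivd, the isovaleryl-CoA dehydrogenase of leucine breakdown, read 8.03, 8.10, 7.72, 7.84 and 7.71 in the KO arrays, against 7.43, 7.86 and 7.72 in the WT arrays. WT array 1 was the lowest, and the difference of 0.21 (SE 0.153) (adjusted p = 0.884) was 0.089 without it. The next enzyme of leucine breakdown, methylcrotonyl-CoA carboxylase, was lower in both subunits. Mccc2 read 7.91, 8.03, 7.73, 7.68 and 7.74 in the KO arrays, against 8.10, 7.86 and 7.93 in the WT arrays, overlapping through KO arrays 1 and 2 (-0.15 (SE 0.135), with -0.25 without those arrays and -0.079 without WT array 1). Mccc1 differed by -0.18 (SE 0.177), and by -0.39 without KO arrays 1 and 2, which were its highest. The propionyl-CoA carboxylase subunits Pcca and Pccb and the valine enzymes Hibch and Hibadh lay between -0.075 and 0.023.

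Among the 6 glycine and serine genes, 2 were higher and 4 lower, with a median log2 difference of -0.050. Shmt1, the cytosolic serine hydroxymethyltransferase that moves 1-carbon units between serine and glycine, read 8.43, 8.48, 8.34, 8.46 and 8.17 in the KO arrays, against 8.48, 8.55 and 8.49 in the WT arrays. It averaged 8.38 ± 0.127 (SD, n = 5) in KO livers and 8.51 ± 0.0379 (SD, n = 3) in WT livers without overlap, KO array 2 and WT array 1 being nearly level. The difference of -0.13 (SE 0.125) had an exact permutation p of 0.107 and an adjusted p of 0.903, and was -0.081 without KO array 5. Its mitochondrial counterpart Shmt2 differed by -0.10 (SE 0.124), and Gldc and Amt of the glycine cleavage system by -0.083 (SE 0.143) and 0.011 (SE 0.187). Phgdh and Psat1 belong to serine synthesis and were dim. Phgdh read 4.93, 4.51, 3.32, 4.71 and 4.35 in the KO arrays, against 4.26, 3.69 and 4.74 in the WT arrays, and its difference of 0.13 (SE 0.346) turned to -0.14 without WT array 2 and -0.0088 without KO array 1. Psat1 averaged 2.31 over all arrays, under the array medians of 2.99 to 3.05.

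**Figure D2:**
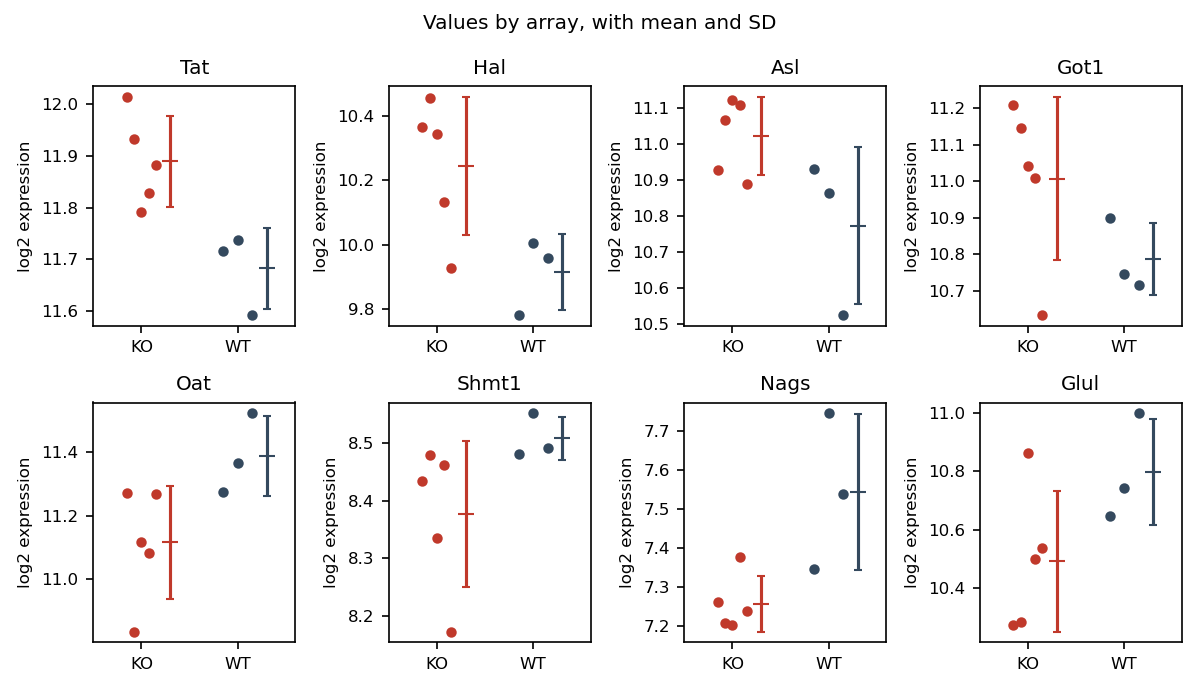
Log2 expression (y axis) of 8 members in each KO array and each WT array, with the group mean and SD beside the points; the y axes differ and do not start at 0. Tat lies above the WT arrays in every KO array and Oat and Shmt1 below them, while Hal, Asl, Got1, Nags and Glul overlap.

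The 3 members whose arrays did not overlap are shown with their promoters. The windows are those of RefSeq on GRCm38.p6, from 250 bases before to 50 bases after the annotated start, written 5′ to 3′ on the strand of the gene, with matches to the searched letters in capitals. Tat lies at chr8:109990186-109990485 on the plus strand, Oat at chr7:132576349-132576648 on the minus strand and Shmt1 at chr11:60811216-60811515 on the minus strand.
Tat: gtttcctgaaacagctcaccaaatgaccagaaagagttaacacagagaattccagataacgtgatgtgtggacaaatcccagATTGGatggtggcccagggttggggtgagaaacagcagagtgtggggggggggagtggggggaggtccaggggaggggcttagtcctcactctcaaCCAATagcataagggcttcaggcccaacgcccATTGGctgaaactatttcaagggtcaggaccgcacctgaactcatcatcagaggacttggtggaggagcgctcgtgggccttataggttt
Oat: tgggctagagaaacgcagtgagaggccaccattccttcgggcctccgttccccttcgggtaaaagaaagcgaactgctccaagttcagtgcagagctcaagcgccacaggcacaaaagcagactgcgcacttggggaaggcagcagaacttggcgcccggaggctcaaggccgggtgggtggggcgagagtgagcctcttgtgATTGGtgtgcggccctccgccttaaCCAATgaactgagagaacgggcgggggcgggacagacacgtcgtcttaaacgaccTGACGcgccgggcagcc
Shmt1: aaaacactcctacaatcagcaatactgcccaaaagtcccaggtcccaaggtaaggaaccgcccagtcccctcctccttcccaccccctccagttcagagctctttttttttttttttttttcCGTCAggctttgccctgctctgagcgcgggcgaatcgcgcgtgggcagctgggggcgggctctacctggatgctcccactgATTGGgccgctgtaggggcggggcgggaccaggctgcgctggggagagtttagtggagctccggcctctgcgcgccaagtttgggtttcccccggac
The letters searched, on both strands, were TGACGTCA (the cAMP response element, CRE), TGACG (its shorter form, also contained in the full element), TGATGNAA (an element bound by ATF4 with C/EBP), TGTTCT (a short site of the glucocorticoid receptor) and CCAAT, which reads ATTGG on the other strand. Tat held CCAAT at 3 places, Oat at 2 places and Shmt1 at 1 place, and Oat and Shmt1 each held TGACG at 1 place. None of the 3 windows held the full CRE, TGATGNAA or TGTTCT.

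Over all members with a window, 46 genes with 51 windows, CCAAT was found in 56.9% of windows against 37.4% of all 32851 windows in the table. The other letters were found in member windows in 0% for TGACGTCA (1.79% of all windows), 13.7% for TGACG (20.8%), 1.96% for TGATGNAA (3.97%) and 7.84% for TGTTCT (19.0%). These are counts of letters in short windows, and binding was not measured.

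The KO livers also differed among themselves in the members. KO arrays 1 and 2 were the 2 highest of the 8 arrays in 17 of 54 members (31.5%), against 5.61% of all clusters and 10.3% of clusters with a mean of at least 8. This pair also stood apart on the first principal component of the same values, and other pairs were not counted. The members were read on the same arrays, so the 17 are not independent. The 17 members came from 9 routes and were Otc, Got1, Agxt2, Tat, Hgd, Tdo2, Kynu, Hal, Uroc1, Amdhd1, Gnmt, Cth, Aldh4a1, Ivd, Mccc1, Hibadh and Amt. KO array 1 was the highest array in 12 members (22.2%) and KO array 2 in 15 (27.8%). KO array 4 was the lowest in 13 (24.1%) and KO array 5 in 14 (25.9%). Among 1645 clusters whose mean was 8 or more, KO array 1 was the highest in 11.2% and KO array 2 in 16.4%. In the same clusters KO array 4 was the lowest in 29.1% and KO array 5 in 13.7%. Low values of KO array 4 were thus no more frequent among members than among those clusters. Among 53 other genes of amino acid breakdown, KO arrays 1 and 2 were the 2 highest in 20.8%, KO array 2 was the highest in 24.5% and KO array 5 the lowest in 26.4%. The median deviation of the 54 members from their WT means was 0.063, 0.058, 0.010, -0.073 and -0.054 in KO arrays 1 to 5 and -0.0072, 0.021 and 0.012 in WT arrays 1 to 3, so that the KO livers spread to both sides of the WT livers.

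**Figure D3:**
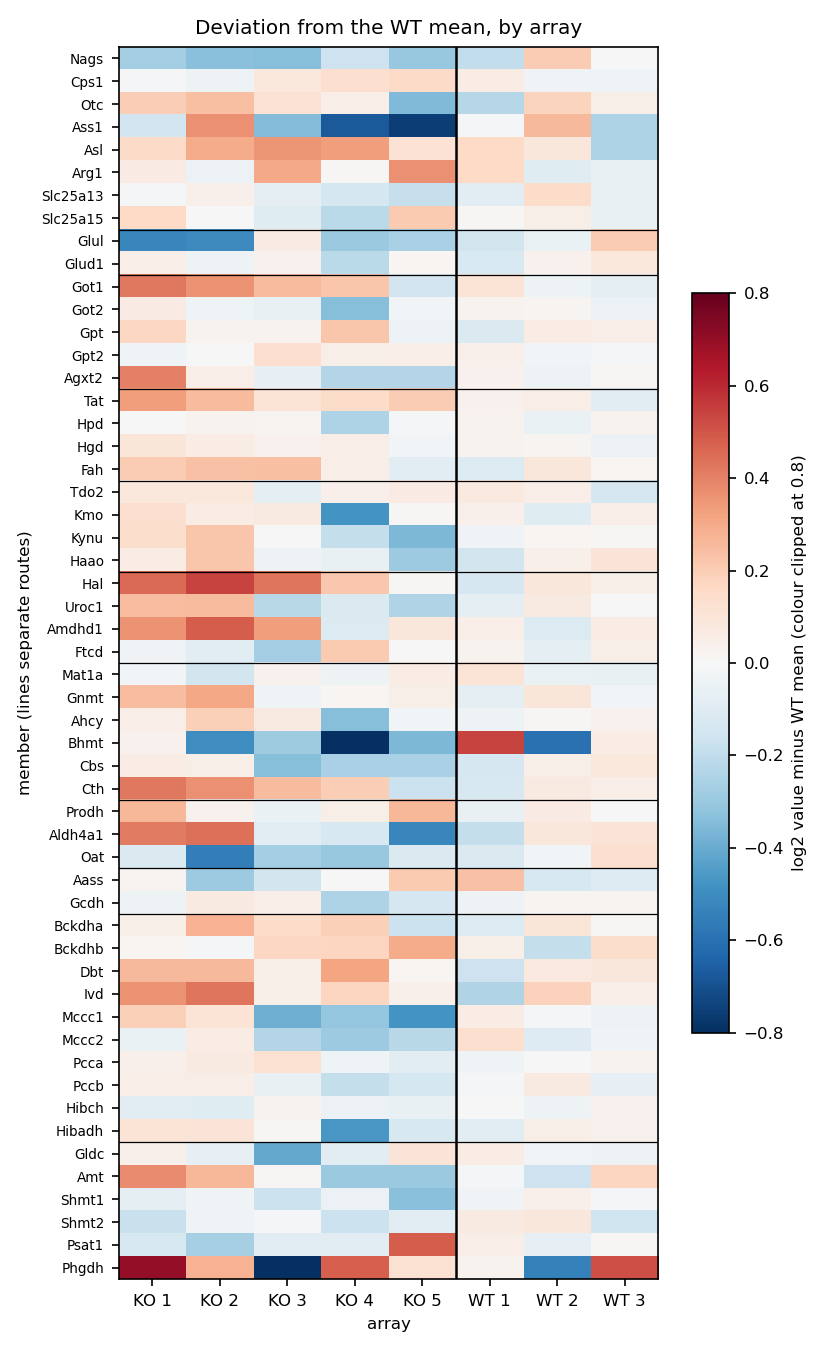
The log2 value minus the WT mean of each member (rows, ordered by route with lines between routes) in each array (columns, KO left of WT), in colour clipped at 0.8 in either direction. KO array 1 or KO array 2 is the highest array in 12 and 15 members (22.2% and 27.8%). KO array 4 or KO array 5 is the lowest in 13 and 14 (24.1% and 25.9%). Among clusters with a mean of at least 8, the 4 shares are 11.2%, 16.4%, 29.1% and 13.7%.

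The same 2 arrays carried high levels of immediate early genes, the fast transcriptional responders to many stimuli. The median deviation of 12 such genes was 1.92, 2.06, 0.40, 0.032 and 0.18 in KO arrays 1 to 5 and -0.045, 0.0088 and -0.076 in WT arrays 1 to 3. Its part in the members' values was not tested. With KO arrays 1 and 2 left out, 23 members were higher and 31 lower, the median log2 difference was -0.059, and 0 passed the adjusted test. The median over all clusters was then -0.0067, and that of bright clusters alone was not computed. The arrays then did not overlap in 12 members, 4 higher and 8 lower in KO, against 5.43% of all clusters higher and 6.17% lower, and 4.6% higher and 9.46% lower among those with a mean of at least 5. Tat, Cps1, Gpt2 and Bckdhb were the 4 higher, and Oat, Shmt1, Ass1, Agxt2, Uroc1, Cbs, Mccc1 and Mccc2 the 8 lower. The 2 members with an unadjusted p under 0.05 in that setting, where 5.98% of all clusters had one, were the dim Ass1 (-0.59) and Mccc1 (-0.39).

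**Figure D4:**
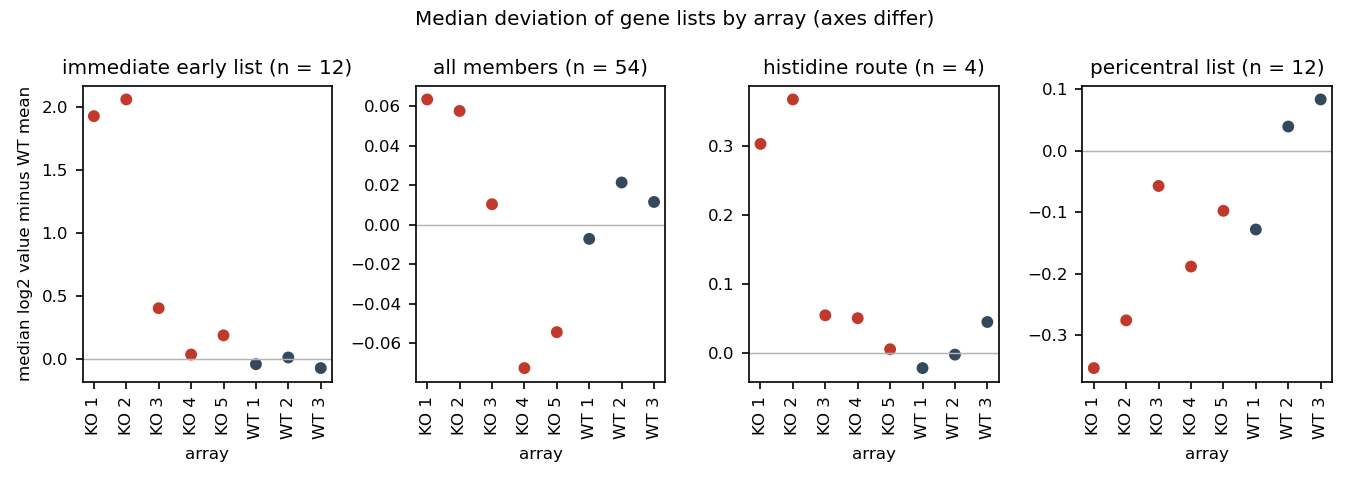
The median over genes of the log2 value minus the WT mean (y axis, a different scale in each panel) for each array (x axis, KO left of WT), for 12 immediate early genes, all 54 members, the 4 histidine genes and 12 pericentral genes that are not members. KO arrays 1 and 2 are the highest for the first 3 lists and the lowest for the pericentral list.

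Other genes of amino acid breakdown, listed by pathway and not as members, were read beside them. Of 60 listed, 53 were measured, with 29 higher and 24 lower in KO, a median log2 difference of 0.019 and 0 past the adjusted test. The median size of the difference, without its sign, was 0.12, against 0.079 among members. By pathway, 6 tryptophan genes were higher and 1 lower, and 8 glycine, serine, threonine and alanine genes higher and 2 lower. Of lysine, proline and arginine genes 3 were higher and 6 lower, and of sulfur amino acid genes 4 higher and 7 lower. At an unadjusted p under 0.05 there were 4, against 6.08% of all clusters, and in the same 4 genes the arrays did not overlap, against 4.43% of all clusters. Acmsd, the decarboxylase that draws tryptophan carbon away from quinolinate, read 8.30, 7.88, 7.57, 7.90 and 7.89 in the KO arrays, against 7.50, 7.49 and 7.26 in the WT arrays, a difference of 0.49 (SE 0.167) (adjusted p = 0.795). It was the largest difference in the tryptophan pathway, whose other measured non-members lay between -0.094 and 0.28. Asns, asparagine synthetase and a target of ATF4, differed by 1.58 (SE 0.582), with KO arrays 1 and 2 at 7.75 and 7.51 and the other KO arrays at 5.26 to 5.53, against 4.35 to 4.92 in WT.

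On the lower side, Mmab, which makes the cobalamin cofactor used in propionate breakdown, read 5.11, 5.05, 5.27, 5.06 and 4.69 in the KO arrays, against 5.31, 5.68 and 5.52 in the WT arrays. Its log2 difference was -0.46 (SE 0.158). Phykpl, an enzyme of hydroxylysine breakdown, read 6.13, 6.21, 6.11, 6.20 and 6.35 in the KO arrays, against 6.64, 6.39 and 6.46 in the WT arrays, a difference of -0.30 (SE 0.125). Both had every KO array below every WT array and an adjusted p of 0.795 and 0.804. Among the others, Gch1, which makes the cofactor precursor for phenylalanine hydroxylation, differed by 0.42 (SE 0.207), the dim Gatm of creatine synthesis by -0.40 (SE 0.194), Mtr, the methionine synthase, by -0.36 (SE 0.188), Aspg, an asparaginase, by 0.29 (SE 0.148), Sardh, the sarcosine dehydrogenase that acts after Gnmt, by 0.26 (SE 0.151), Bckdk, the kinase that inhibits the branched-chain dehydrogenase, by -0.22 (SE 0.14), Aadat, an aminotransferase of lysine and kynurenine, by 0.20 (SE 0.137) and Pcbd1 by -0.12 (SE 0.13).

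Because Glul and Oat mark hepatocytes near the central vein, other genes of that zone were read beside them. Of 12 measured pericentral genes that are not members, 9 were lower and 3 higher in KO, with a median log2 difference of -0.22, and 0 passed the adjusted test. The 3 higher were Axin2 (0.14, SE 0.282), Nkd1 (0.23, SE 0.240) and Rhbg (0.17, SE 0.186). A lower KO mean was also the commoner direction on the array, in 4613 of the 7699 clusters whose mean reached 5, with a median of -0.040. Slc1a2, a glutamate transporter found with Glul around the central vein, read 6.31, 6.64, 6.38, 6.34 and 6.34 in the KO arrays, against 6.87, 6.74 and 6.82 in the WT arrays without overlap. Its difference was -0.41 (SE 0.129) (adjusted p = 0.795, exact permutation p = 0.0179, the smallest that the test can give). Slc1a2 was named because its p was the smallest of the list, so this p is no separate support. Of all clusters, 2.44% also had every KO array below every WT array. Rgn, regucalcin, averaged 10.23 ± 0.0844 (SD, n = 5) in KO livers and 10.58 ± 0.326 (SD, n = 3) in WT livers, a difference of -0.35 (SE 0.156) with overlap through WT array 1. The list's median was -0.088 without KO arrays 1 and 2, which held its lowest values, and lay between -0.27 and -0.12 without any single array. Of 8 periportal genes that are not members, 5 were higher and 3 lower, with a median of 0.086. G6pc, which releases free glucose, read 9.31, 9.76, 8.04, 8.20 and 8.20 in the KO arrays, against 7.96, 8.23 and 7.90 in the WT arrays. KO arrays 1 and 2 alone lay above the WT range, and the difference was 0.67 (SE 0.374). Cdh1, E-cadherin, read 7.84, 7.44, 7.96, 7.32 and 8.04 in the KO arrays, against 7.85, 7.18 and 7.25 in the WT arrays, where WT array 1 lay well above the other two (0.29 (SE 0.217)). Whether zonation bears on the values of Glul, Oat and Hal was not tested.

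Of 10 regulators known to act on these genes in liver, 7 were higher and 3 lower in KO, with 0 past the adjusted test. Cebpb, a C/EBP factor induced by cAMP and glucocorticoids, read 7.79, 7.53, 6.95, 6.91 and 6.84 in the KO arrays, against 6.43, 6.73 and 6.59 in the WT arrays. Each KO array lay above each WT array, with KO arrays 1 and 2 the highest, and the difference was 0.62 (SE 0.226) (adjusted p = 0.795). Foxo1, which insulin signalling restrains, differed by 0.27 (SE 0.137), with overlap. The 10 ATF4 targets outside the member list had a median of 0.049, and apart from Asns they lay between -0.23 and 0.16, with Trib3, a pseudokinase, at -0.23 (SE 0.199). Of the immediate early genes, Klf4 and Atf3, both transcription factors, had the smallest unadjusted p, with differences of 0.45 (SE 0.168) and 0.85 (SE 0.32).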

How the data were processed

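Liver RNA of 5 KO and 3 WT mice was measured on 1 array each. The authors deposited log2 expression values per transcript cluster, made with RMA in oligo per the submitters' processing notes, while the design text names Expression Console; the settings and the genome build were not stated, and RMA compresses differences of dim genes. Cluster symbols came from GEO's platform annotation: of 41345 clusters, 23521 had 1 symbol, 1814 several and 16010 none listed.

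Differences of KO minus WT were fitted with limma 3.58.1 in R 4.3.3 (lmFit and eBayes, 6 residual degrees of freedom) over the 23521 clusters, with Benjamini-Hochberg adjustment and a threshold of 0.05. Each SE and interval uses the eBayes variance, which is drawn towards a value shared over all clusters. Exact permutation tests ran over all 56 splits of the 8 arrays, two-sided, and can give no p below 0.0179. Of the 54 members, 3 had an exact p under 0.05 (Nags, Tat and Oat), and the share over all clusters was not computed. The fit was checked on simulated data with each cluster's own mean and spread. At the adjusted threshold it called 9.2% of planted log2 changes of 0.5, 63.6% of 1, 58.4% of -1 and 93.6% of 2. Planted changes of 0.5 were thus mostly missed. The planted clusters were drawn from all 23521, of which 7699 had a mean of at least 5. The shares for clusters as bright as most members were not computed. Per-array values are given for the 6 members with the smallest unadjusted p in each direction, members without overlap, the 6 urea cycle enzymes, the main aminotransferases, Glul and Glud1, and the member with the largest difference in each other route, and among non-members the 2 genes with the smallest p per pathway or context list are named (not per cell type marker list). The rule for members uses no measured value, but the members and lists were chosen with earlier results of these data known. Nothing in the labels says whether arrays of a group came from separate litters or days, and 5 against 3 arrays limit the precision. In all, 17 alternative settings were tried.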

Additional observations from a re-analysis of the deposited data

Results flagged for a closer look

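Among the 54 members, 4 had 1 KO array far from the other 4 KO arrays, relative to their range; chance alone marks about 1 in 20 groups. Hpd was lowest in KO array 4 at 11.825, the other KO arrays lying at 12.056 to 12.102. Tdo2 was lowest in KO array 3 at 11.26, against 11.377 to 11.424 in the other KO arrays. Kmo was lowest in KO array 4 at 9.104, against 9.591 to 9.718 in the other KO arrays. Psat1, a dim cluster, was highest in KO array 5 at 2.808, against 2.054 to 2.237 in the other KO arrays.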

How the results depend on the processing

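No member passed the adjusted test under any of the 17 alternatives. Over all clusters, where 0 passed, 3 passed with trend and robust settings, 3 over all clusters of the table, 1 over clusters with a mean of at least 5, 1 with the replicate number as a block, and 0 without any single array. Members at an unadjusted p under 0.05, 0 at first, numbered 6 with trend and robust settings, 2 with array weights, 2 over clusters with a mean of at least 5, 1 after quantile normalization again, 1 with array medians aligned, 2 with the mean of all clusters of a gene, 2 with the replicate block, 2 without KO arrays 1 and 2, and 0 to 3 without single arrays, where 5% to 8.26% of the clusters tested had such a p. The members' median was 0.0435 with the replicate block and -0.0403 to 0.0364 without single arrays. Members without overlap numbered 12 without KO arrays 1 and 2, where 5.43% of all clusters lay higher and 6.17% lower without overlap. They numbered 3 to 8 without single arrays, where the share of all clusters, where computed, was 6.71% to 10.5%. Without KO arrays 1 and 2 the route medians were -0.0480 for the urea cycle, -0.2307 for proline and ornithine and -0.1183 for glycine and serine, and the pericentral median was -0.0875. With the replicate block they were 0.0852 for tryptophan and 0.0640 for branched-chain genes. Same-numbered arrays deviated with correlations of -0.048, 0.016 and 0.021, and all pairs of a KO and a WT array lay between -0.053 and 0.053. With so few arrays these values cannot settle whether same-numbered arrays share a litter or day. Without KO arrays 1 and 2 the sign turned in 8 of 54 members, Otc and Phgdh among those given by array, and Slc25a15, Mat1a, Aldh4a1, Aass, Amt and Psat1. Among members given by array, the sign turned for Otc without KO arrays 1 and 2 (-0.0637) and without single arrays (-0.0648 to 0.1499), for Glud1 with medians aligned (0.0111), the replicate block (0.0153) and without single arrays (-0.0926 to 0.0160), for Got2 with the mean of its clusters (0.0170), for Kmo with medians aligned (0.0013), the replicate block (0.0883) and without single arrays (-0.0894 to 0.0688), for Gcdh with the replicate block (0.0287), and for Phgdh without KO arrays 1 and 2 (-0.1047) and without single arrays (-0.1364 to 0.3947). The cause was not tested. Signal limits Ass1, Bhmt, Phgdh and Psat1.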
